A study of Homo sapiens with 5 samples.

Results

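The genes described here are 46 interferon-stimulated effector genes, the proteins that cells make in answer to type I and type III interferon. They were taken by name, and each was read from the probe set of that gene with the highest mean. All 46 had a probe set with a single gene symbol and passed the filter on low values, among 14894 genes that passed of 19775 with such a probe set. Whole-cell RNA was measured in HPDE, HPAF1, SU86.86, L3.6 and PANC1, which are 5 untreated human lines of pancreatic origin, with 1 array per line and no replicate culture. The labels give no treatment, no genotype and no question beyond the profile of each line, and they call all 5 pancreatic cancer lines. As background, HPDE cells descend from normal human duct epithelium and were immortalised in culture. Each value therefore has no error of its own, and a standard error given with a difference is that of the limma fit, which rests on the spread among the other 4 lines.

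Interferons are secreted proteins that bind receptors on the cell surface. The receptors activate JAK kinases, and a complex that contains the factor IRF9 then binds a promoter element known as the interferon-stimulated response element, or ISRE. The genes switched on in this way block viral entry, destroy or sense foreign RNA, tag proteins with the ubiquitin-like modifier ISG15, and amplify or limit the response itself. Epithelial and tumour cells can carry this programme without added interferon, and the level of it differs from one cell line to another.

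The promoters of 5 members are shown first, since the element just described can be read in them and they stand for different patterns across the lines. Each window ends at the base before the annotated start of transcription, runs 5′ to 3′ on the gene's strand and holds 120 bases. Capitals mark matches to an ISRE-like motif, GAAANNGAAA on one strand or TTTCNNTTTC on the other. The sequences come from the RefSeq promoter table for GRCh38.p14. ISG15 lies at chr1:1013377-1013496, IFIT1 at chr10:89392503-89392622, IFIT5 at chr10:89414448-89414567, IFI44L at chr1:78620328-78620447 and IFI27 at chr14:94110616-94110735, all on the plus strand.
ISG15: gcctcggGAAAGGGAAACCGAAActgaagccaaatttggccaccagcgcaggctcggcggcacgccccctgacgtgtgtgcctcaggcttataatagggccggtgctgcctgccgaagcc
IFIT1: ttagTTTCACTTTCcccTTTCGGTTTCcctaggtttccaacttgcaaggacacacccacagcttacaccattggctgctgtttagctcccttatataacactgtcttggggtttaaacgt
IFIT5: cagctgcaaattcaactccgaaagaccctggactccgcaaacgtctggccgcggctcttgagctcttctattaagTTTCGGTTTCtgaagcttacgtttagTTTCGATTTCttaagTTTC
IFI44L: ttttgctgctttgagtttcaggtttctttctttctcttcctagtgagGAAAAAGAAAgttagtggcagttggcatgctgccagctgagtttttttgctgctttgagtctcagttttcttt
IFI27: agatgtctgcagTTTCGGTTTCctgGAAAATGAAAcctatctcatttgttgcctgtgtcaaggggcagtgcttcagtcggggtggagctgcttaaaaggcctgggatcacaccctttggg

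In the ISG15 promoter 2 matches overlap, the first starting 113 bases and the second 107 bases before the start. IFIT1 holds 2 matches on the other strand, 116 and 103 bases before the start. IFIT5 holds 3, of which the last begins 4 bases before the start and runs past the printed window. IFI44L has 1 match in the window and another that begins 164 bases before the start, outside it. IFI27 has 1 match on each strand.

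Over a window of 300 bases, 250 before and 50 after the start, the RefSeq table held a promoter for 39 of the 46 members. MX2, TRIM22, USP18, IFIT2, OAS2, OASL and LAMP3 were not matched. At least 1 ISRE-like match was found in 26 of the 39, or 66.7%, with 43 matches in all. Among the genes tested the share was 2.68%, 319 of 11885 promoters, and over all 27305 promoters of the table it was 3.65%. A second motif, TTCNNNGAA, which reads the same on both strands and is like the gamma-activated sequence of interferon gamma targets, was found in 9 of 39 members (23.1%) and in 6.21% of the genes tested. A match describes letters in this window and is not a measured binding site.

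The levels of these genes followed one order in most cases. HPDE had the highest level for 39 of the 46 members and HPAF1 for the other 7, against 22.0% and 23.7% of all genes tested. PANC1 had the lowest level for 37, L3.6 for 7 and SU86.86 for 2, and of all genes 17.0% were lowest in PANC1. For 33 members the order was HPDE, then HPAF1, then each of the other 3 lines. Levels are given throughout as log2(intensity + 71.1), so a difference of 1 is 2-fold on that scale, and the added constant makes differences of dim genes too small. The median member level was 11.46 for HPDE, 10.32 for HPAF1, 9.09 for SU86.86, 8.74 for L3.6 and 7.79 for PANC1. The median of all genes tested lay between 8.91 in L3.6 and 8.97 in HPDE, so the arrays differed far less in general level. In these bulk samples a smaller number of expressing cells and less RNA per cell cannot be told apart.

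The level filter of 7.72, the median over all probe sets, sets dimmer values apart from brighter ones and is not a measured background. In PANC1, 22 members lay below it, in L3.6 13, in SU86.86 5, in HPAF1 1 (TRIM22) and in HPDE 0. Of all genes tested, between 11.1% and 13.4% were below it in a given line. On the probe sets used, 22 members were above the filter in every line. For the other members, the lowest levels are readings near background. A place among the 22 depends on the probe set. Another probe set read below the filter in PANC1 for OAS1 (6.99), OASL (7.01) and XAF1 (6.69), which are among them. The distance from a member's highest to its lowest line had a median of 3.90, against 0.85 over all genes.

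**Figure D1:**
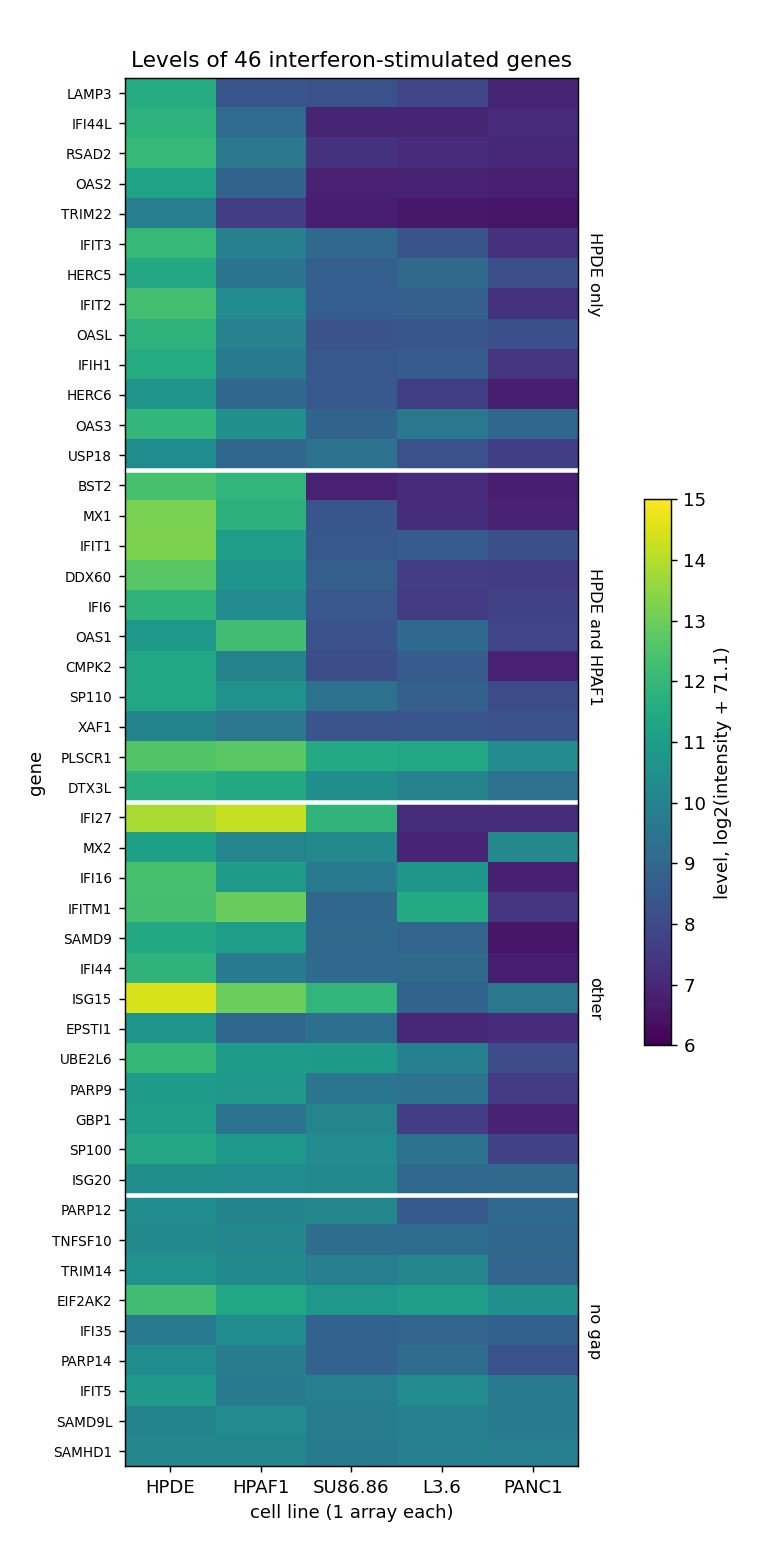
Level of each of the 46 members (rows) in the 5 cell lines (columns, 1 array each), as log2(intensity + 71.1) on a colour scale; white lines separate the pattern classes. The HPDE column is bright throughout (9.68 to 14.45), HPAF1 is next, and PANC1 is darkest, with 22 members below 7.72.

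Each member was placed in a class by the widest gap between its 5 sorted levels, provided that the gap was at least 1. In 13 members HPDE alone lay above the gap: LAMP3, IFI44L, RSAD2, OAS2, TRIM22, IFIT3, HERC5, IFIT2, OASL, IFIH1, HERC6, OAS3 and USP18. That is 28.3% of the members, beside 1.72% of all genes tested. In 11 members exactly HPDE and HPAF1 lay above it: BST2, MX1, IFIT1, DDX60, IFI6, OAS1, CMPK2, SP110, XAF1, PLSCR1 and DTX3L. That is 23.9%, beside 0.51% of all genes. In 13 members another set of lines was high: IFI27, MX2, IFI16, IFITM1, SAMD9, IFI44, ISG15, EPSTI1, UBE2L6, PARP9, GBP1, SP100 and ISG20. That is 28.3%, beside 13.7% of all genes. In 9 members no gap reached 1: PARP12, TNFSF10, TRIM14, EIF2AK2, IFI35, PARP14, IFIT5, SAMD9L and SAMHD1. That is 19.6%, beside 84.1% of all genes. Closest to the limit were DTX3L (1.01) and USP18 (1.02) inside it and PARP12 (0.995) and TNFSF10 (0.94) outside it.

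Of the 37 members with such a gap, the high lines included HPDE 37 times, HPAF1 24, SU86.86 12, L3.6 7 and PANC1 1 time. The class in which HPDE alone was high did not leave HPAF1 at the level of the other lines. HPAF1 was second in 12 of its 13 members and at least 2-fold above each of the other 3 lines in 6. HPDE exceeded HPAF1 by a median of 1.98 there, with a range of 1.37 to 3.17. In the class with both lines high the median was 0.73, with a range of -1.39 to 2.16. Without the HPAF1 array the class of both lines cannot occur. The class of HPDE alone then grew from 13 to 28 members and that without a gap fell from 9 to 5. With a line counted as high when within 1 log2 unit of the highest line, HPDE was high alone in 22.

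**Figure D2:**
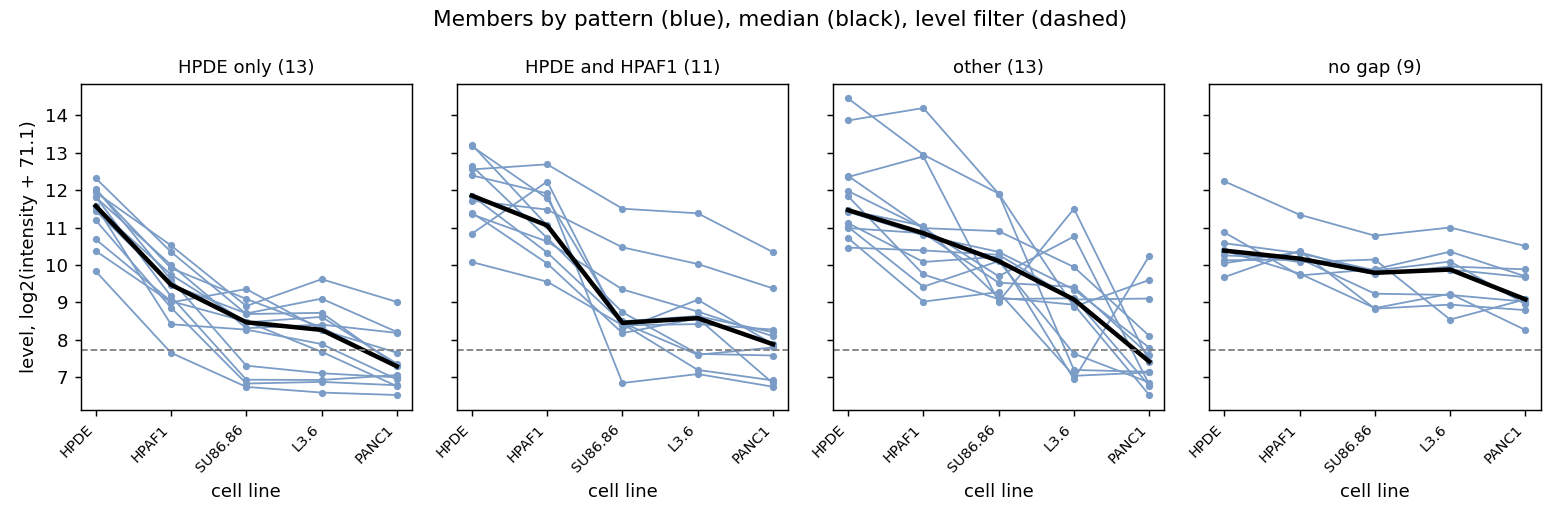
Levels of the members, as log2(intensity + 71.1), across the 5 lines in 4 panels by pattern class; each blue line is 1 gene, the black line is the class median and the dashed line is the level filter of 7.72. In the first panel the median drops from 11.58 in HPDE to 9.47 in HPAF1, in the second from 11.86 to 11.06, and the fourth falls least, from 10.38 in HPDE to 9.08 in PANC1.

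The first role group holds the GTPases and restriction factors that act on viral particles or viral genomes. HPDE was at least 2-fold above the mean of the other lines in 8 of its 9 members, with a median difference of 2.52. BST2, which tethers budding virions to the membrane, had a level of 12.40 for HPDE, 11.91 for HPAF1, 7.08 for L3.6, 6.84 for SU86.86 and 6.74 for PANC1. The intensities behind these levels were 5323 and 3784 in HPDE and HPAF1 and between 36.0 and 64.4 in the other lines. BST2 was thus bright on 2 arrays and near background on 3, with nothing in between. MX1, a GTPase that traps viral nucleocapsids, gave intensities of 9178 for HPDE, 3451 for HPAF1, 273 for SU86.86, 75.2 for L3.6 and 49.3 for PANC1. Its relative MX2, which restricts retroviruses, ran differently. The level of MX2 was 11.12 for HPDE, 10.24 for PANC1, 10.22 for SU86.86, 10.08 for HPAF1 and 6.94 for L3.6. L3.6 was the single low line, and MX2 was the only member for which PANC1 lay above the widest gap.

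RSAD2, also called viperin, makes a nucleotide analogue that stops viral polymerases. Its level was 12.04 for HPDE, 9.61 for HPAF1, 7.31 for SU86.86, 7.10 for L3.6 and 6.99 for PANC1, so 3 lines were below the filter. TRIM22, a ubiquitin ligase with antiviral activity, stood at 9.83 in HPDE and 7.65 in HPAF1, while SU86.86 read 6.74, L3.6 read 6.59 and PANC1 read 6.52. HPDE was the only line in which TRIM22 exceeded the filter. IFITM1, a membrane protein that hinders fusion of viruses with the cell, was highest in HPAF1 at 12.90, followed by 12.35 for HPDE, 11.50 for L3.6, 9.02 for SU86.86 and 7.42 for PANC1. It was the only member whose high lines were HPDE, HPAF1 and L3.6. GBP1, a GTPase induced by interferon gamma as well, had levels of 11.02 for HPDE, 10.10 for SU86.86, 9.42 for HPAF1, 7.63 for L3.6 and 6.86 for PANC1. HPAF1 lay below SU86.86 for GBP1, by the widest margin of any member, HPAF1 minus SU86.86 being -0.69. PLSCR1, a membrane scramblase, ranged from 10.34 in PANC1 to 12.69 in HPAF1. SAMHD1, which depletes deoxynucleotides, lay between 9.76 (SU86.86) and 10.14 (HPAF1) on the probe set used. A dimmer probe set of SAMHD1 read 9.88 in HPDE and 8.61 to 8.94 elsewhere, and with the mean of all its probe sets the HPDE difference was 0.57 in place of 0.19, so the narrow range depends on the probe set.

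The second group is the ISG15 system, and HPDE was at least 2-fold higher in 5 of 5 members, with a median of 2.58. ISG15 itself gave intensities of 22376 for HPDE, 7829 for HPAF1, 3779 for SU86.86, 704 for PANC1 and 401 for L3.6. It was above the level filter on every array, and its 3 high lines were HPDE, HPAF1 and SU86.86. UBE2L6, the conjugating enzyme for ISG15, had levels of 11.98 for HPDE, 10.99 for HPAF1, 10.90 for SU86.86, 9.95 for L3.6 and 8.10 for PANC1. PANC1 alone was low for UBE2L6. HERC5, the main ligase for ISG15, was at 11.45 in HPDE and between 8.21 in PANC1 and 9.47 in HPAF1 elsewhere. HERC6, its neighbour on chromosome 4, was at 10.69 in HPDE and between 6.76 in PANC1 and 9.03 in HPAF1. USP18, which removes ISG15 and damps receptor signalling, was at 10.38 in HPDE, with SU86.86 second at 9.36. It is the one gene of the HPDE class in which HPAF1 was not second, and its reading is uncertain because the genome holds a near-identical copy of the gene.

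The IFIT proteins bind viral RNA that lacks the host's cap marks, and HPDE was at least 2-fold higher in 3 of 4, with a median of 3.46. IFIT1 gave 13.22 for HPDE, 11.06 for HPAF1, 8.63 for L3.6, 8.50 for SU86.86 and 8.20 for PANC1. IFIT2 and IFIT3 had HPDE alone above the gap, with levels of 12.32 and 12.02 there and 10.35 and 9.92 in HPAF1. PANC1 was the lowest line for both, at 7.30 for IFIT2 and 7.29 for IFIT3. IFIT5 gave 10.87 for HPDE, 10.36 for L3.6, 9.89 for SU86.86, 9.72 for HPAF1 and 9.70 for PANC1. The widest gap of IFIT5 was 0.52, and HPAF1 was among the lowest lines. A dimmer probe set of IFIT5 had HPAF1 second at 8.34, after HPDE at 9.07, so the place of HPAF1 depends on the probe set. The promoter of IFIT5, printed above, holds 3 ISRE-like matches. IFIT1 and IFIT5 are next to each other on chromosome 10, and HPDE exceeded the mean of the other lines by 4.12 ± 1.19 (SE of the limma fit) for IFIT1 and by 0.96 ± 0.32 for IFIT5.

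**Figure D3:**
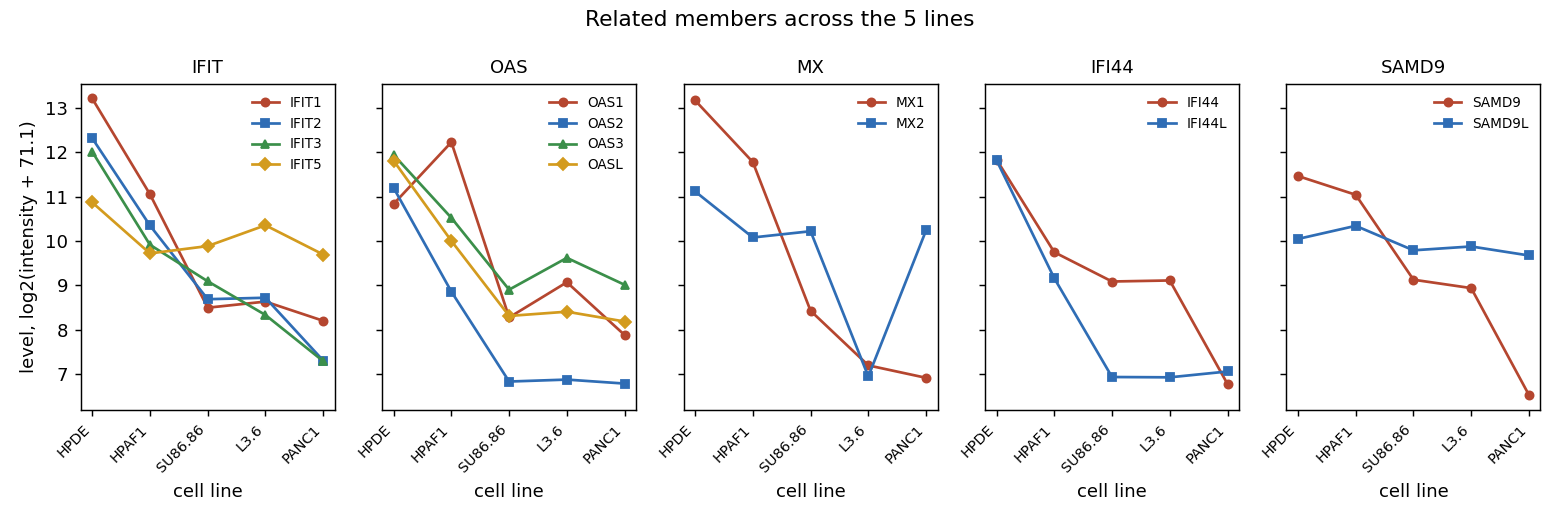
Levels of related members, as log2(intensity + 71.1), across the 5 lines (1 array each), in 5 panels for the IFIT, OAS, MX, IFI44 and SAMD9 genes; each line is 1 gene. IFIT5 and SAMD9L stay nearly level (ranges of 1.18 and 0.67) where their relatives IFIT1 and SAMD9 span 5.02 and 4.94, MX2 is low in L3.6 alone, and OAS1 peaks in HPAF1.

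Members that sense or destroy nucleic acids form the fourth group, and HPDE was at least 2-fold higher in 8 of 9, with a median of 2.82. The OAS enzymes make short oligoadenylates that activate the ribonuclease RNase L. OAS1 was at 12.23 for HPAF1, 10.84 for HPDE, 9.07 for L3.6, 8.28 for SU86.86 and 7.88 for PANC1. It was the only member for which HPAF1 exceeded HPDE by 2-fold or more, HPDE minus HPAF1 being -1.39. The size of this difference depends on the probe set, since another one of OAS1 read 12.23 in HPAF1 and 11.87 in HPDE, which is under 2-fold. OAS2 was at 11.20 for HPDE, 8.86 for HPAF1, 6.87 for L3.6, 6.83 for SU86.86 and 6.78 for PANC1. The dimmest probe set of OAS2 was highest in HPAF1 at 8.54, with 8.09 in HPDE. OAS3 and OASL, the latter without synthetase activity, were at 11.94 and 11.81 in HPDE, and HPAF1 was next for both, with intensities of 1400 and 955 against 3869 and 3526. The 3 genes OAS1, OAS3 and OAS2 lie side by side on chromosome 12, and only the first was highest outside HPDE.

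IFIH1, the cytosolic sensor MDA5, was at 11.54 in HPDE, 9.74 in HPAF1 and between 7.36 and 8.61 in the other lines. DDX60, a helicase of the same response, was at 12.65 for HPDE, 10.72 for HPAF1, 8.74 for SU86.86, 7.62 for L3.6 and 7.58 for PANC1. IFI16, a sensor of DNA, was at 12.38 for HPDE, 10.99 for HPAF1, 10.76 for L3.6, 9.70 for SU86.86 and 6.80 for PANC1. PANC1 was the one low line for IFI16, with an intensity of 40.5 against 759 or more elsewhere. ISG20, an exonuclease, had 3 nearly equal high lines, HPDE at 10.46, HPAF1 at 10.39 and SU86.86 at 10.27, with PANC1 at 9.10 and L3.6 at 9.08. EIF2AK2, the kinase PKR that halts translation, was at 12.24 for HPDE, 11.35 for HPAF1, 11.00 for L3.6, 10.78 for SU86.86 and 10.50 for PANC1. A further probe set of EIF2AK2 read 12.20 in HPDE and 9.45 to 10.35 in the other lines, so the small gap of this gene depends on the probe set.

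The PARP enzymes and nuclear body proteins varied less, with a median HPDE difference of 1.38 and 5 of 7 members at least 2-fold higher. PARP9 and its partner DTX3L, a ubiquitin ligase, are neighbours on chromosome 3. PARP9 was at 10.99 for HPDE, 10.85 for HPAF1, 9.53 for SU86.86, 9.42 for L3.6 and 7.59 for PANC1. DTX3L ran from 9.37 in PANC1 to 11.72 in HPDE. SP100, a nuclear body component, was at 11.42 for HPDE, 10.79 for HPAF1, 10.35 for SU86.86, 9.34 for L3.6 and 7.79 for PANC1. For PARP9 and SP100, as for UBE2L6 and IFI16, PANC1 was the only line under the gap. SP110, its relative, ran from 8.09 in PANC1 to 11.35 in HPDE, with HPAF1 at 10.63. PARP12 was at 10.39 for HPDE, 10.14 for SU86.86, 10.07 for HPAF1, 9.08 for PANC1 and 8.54 for L3.6. PARP14 was at 10.38 for HPDE, 9.77 for HPAF1, 9.23 for L3.6, 8.85 for SU86.86 and 8.26 for PANC1. TRIM14, an adaptor of RNA sensing, was at 10.58 for HPDE, 10.31 for HPAF1, 10.09 for L3.6, 9.85 for SU86.86 and 8.95 for PANC1. None of these 3 genes had a gap of 1, and HPDE was the highest line for each.

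Among the small interferon-induced proteins HPDE was at least 2-fold higher in 6 of 7, with a median of 3.16. IFI27, a small membrane protein, gave intensities of 18718 for HPAF1, 14846 for HPDE, 3766 for SU86.86, 75.1 for L3.6 and 70.2 for PANC1. Its 3 high lines were separated from the others by 4.71 log2 units, and its range of 7.05 was the largest of the 46. IFI6, a relative that guards against cell death, was at 11.86 for HPDE, 10.33 for HPAF1, 8.45 for SU86.86, 7.79 for PANC1 and 7.60 for L3.6. IFI44 was at 11.84 for HPDE, 9.75 for HPAF1, 9.11 for L3.6, 9.09 for SU86.86 and 6.77 for PANC1. Its neighbour on chromosome 1, IFI44L, was at 11.82 for HPDE, 9.16 for HPAF1, 7.06 for PANC1, 6.93 for SU86.86 and 6.92 for L3.6. HPDE led and HPAF1 was second for both. On these probe sets IFI44 was above the filter in SU86.86 and L3.6 and IFI44L was not, but a dimmer probe set of IFI44 read 7.07 and 6.91 there, below the filter, and had HPDE alone high. The difference between the pair thus depends on the probe set. EPSTI1 was at 10.72 for HPDE, 9.28 for SU86.86, 9.02 for HPAF1, 7.13 for PANC1 and 7.03 for L3.6. CMPK2, a mitochondrial nucleotide kinase that lies next to RSAD2 on chromosome 2, was at 11.40 in HPDE and 10.04 in HPAF1, and at 8.58 or less in the rest. IFI35 was highest in HPAF1 at 10.38, with 9.68 in HPDE and 8.79 to 8.94 elsewhere.

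The last group joins proteins of growth, death and the lysosome, with 3 of 5 at least 2-fold higher in HPDE and a median of 1.42. LAMP3, a lysosomal membrane protein known from maturing dendritic cells, gave intensities of 2989 for HPDE, 270 for HPAF1, 238 for SU86.86, 165 for L3.6 and 51.8 for PANC1. It had the widest gap of the HPDE class, 3.17, and HPDE exceeded the mean of the others by 3.70 ± 0.62 (SE of the limma fit). SAMD9, which halts translation in infected cells, was at 11.47 for HPDE, 11.04 for HPAF1, 9.13 for SU86.86, 8.94 for L3.6 and 6.53 for PANC1. SAMD9L, the adjacent gene on chromosome 7, stayed between 9.67 in PANC1 and 10.34 in HPAF1. XAF1, which opposes inhibitors of apoptosis, was at 10.08 in HPDE and 9.55 in HPAF1, and at 8.27 to 8.42 in the other lines. TNFSF10, the death ligand TRAIL, ran from 9.02 in PANC1 to 10.26 in HPDE on the probe set used. Its other probe sets were highest in HPAF1, at 9.80 and 9.18, with 9.41 and 8.67 in HPDE. The former had a widest gap of 1.05, so the highest line and the class of TNFSF10 depend on the probe set.

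Adjacent members were not always alike. In gene order, 10 pairs of members were direct neighbours, on 8 chromosomes and with 19 members, and 3 of these pairs had the same class, namely IFIT2 with IFIT3, OAS3 with OAS2 and HERC6 with HERC5. The share of promoters with an ISRE-like match was 5 of 7 in the class of HPDE alone, 7 of 11 in that of HPDE and HPAF1, 8 of 12 among other sets and 6 of 9 among members without a gap.

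Pairs of lines were compared by size alone, since each side is 1 array. HPDE exceeded PANC1, L3.6 and SU86.86 for all 46 members, by any amount. HPDE over PANC1 gave 42 members at 2-fold or more and 0 the other way. The median member difference was 3.63, and 9.26% of all genes were as much higher. Against L3.6 the count was 40 and 0, with a median of 2.56, beside 8.59%. Against SU86.86 it was 37 and 0, with a median of 2.27, beside 7.72%. Against HPAF1 it was 25 higher and 1 lower, with a median of 1.26, beside 9.27%. These comparisons share the HPDE array. The smallest differences were those of SAMHD1 against PANC1 (0.24) and L3.6 (0.17) and of ISG20 against SU86.86 (0.19).

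HPAF1 stood above the remaining lines in the same way but by less. It was at least 2-fold above PANC1 in 40 members and below it in 0, with a median of 2.31, beside 9.52% of all genes. Above L3.6 it was 33 and 0, with a median of 1.44, beside 9.03%. Above SU86.86 it was 25 and 0, with a median of 1.10, beside 6.83%. These comparisons share the HPAF1 array. HPAF1 was below the other line, by less than 2-fold, for a few members. The lowest differences were those of GBP1 against SU86.86, at -0.69, of IFIT5 against L3.6, at -0.64, and of MX2 against PANC1, at -0.16. That of IFIT5 depends on the probe set.

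**Figure D4:**
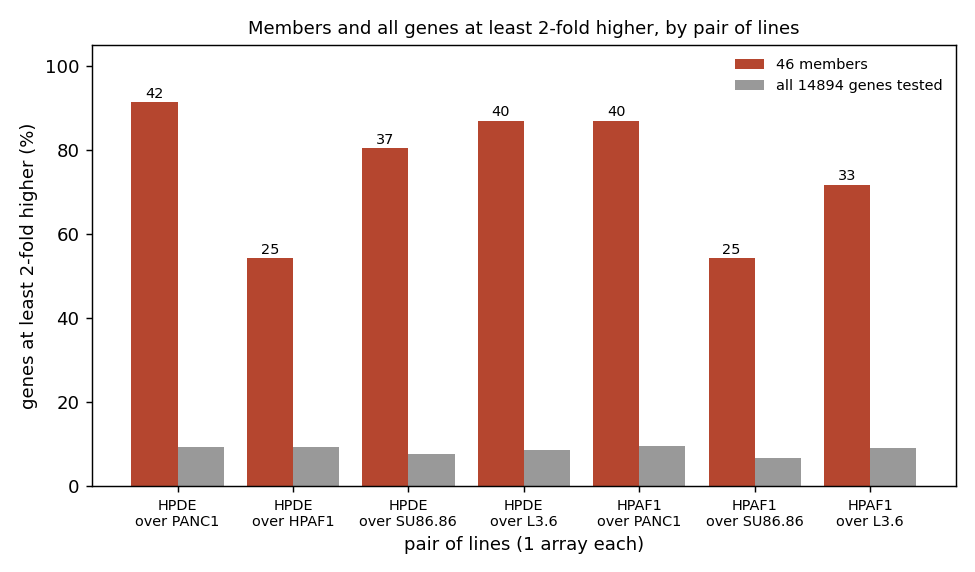
Percent of the 46 members (red, with the count above each bar) and of all 14894 genes tested (grey) that were at least 2-fold higher in the first line than in the second, for 7 pairs of lines with 1 array each. The red bars stand for 25 to 42 members, and the grey bars for 6.83% to 9.52% of genes.

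In the test across all genes no member passed. HPDE was at least 2-fold above the mean of the other lines in 38 members and below in 0, with a median of 2.54, beside 6.48% of all genes higher. With limma and Benjamini-Hochberg adjustment over 14894 genes, 0 members were called in HPDE, where 0.0269% of all genes were called, and the lowest adjusted p of a member was 0.344, for LAMP3. At an unadjusted p under 0.05 there were 18 members, all higher, beside 8.23% of all genes. Without the HPAF1 array that number was 28, and without SU86.86 it was 12. The SE rests on the spread among the other 4 lines, HPAF1 included. For BST2, where HPAF1 was high too, the difference was 4.25 ± 2.25 (SE of the limma fit). For TRIM22, where the other 4 lines all read below the filter, it was 2.96 ± 0.50.

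The other lines gave no call among the members either. In PANC1, 36 members were at least 2-fold below the mean of the other lines, beside 5.54% of all genes. There, 0 were called beside 0.0269% of all genes, and 9 had an unadjusted p under 0.05 in the limma fit, all lower, beside 5.56% of all genes. These 9 became 5 without HPAF1 and 15 without L3.6. In HPAF1, 20 were at least 2-fold higher, beside 6.96% of all genes, and 0 were called beside 0.242%. OAS1 and IFI35 had an unadjusted p under 0.05 in HPAF1. That count of 2 is a smaller share than the 10.1% of all genes, and it became 19 without HPDE. In SU86.86, 2 members were higher by 2-fold or more and 11 lower, beside 5.29% and 2.59% of all genes. Of these, 0 were called, as were 0% of all genes, and 0 had an unadjusted p under 0.05, beside 3.74%. In L3.6, 1 was higher and 19 lower, beside 2.99% and 4.72% of all genes. There 0 were called, as were 0% of all genes, and MX2 alone was under 0.05 before adjustment, lower, beside 3.37%. Without the PANC1 array that last count was 8.

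Genes upstream of the members were measured on the same arrays. Of 18 interferon genes with a probe set, 15, IFNB1 and IFNG among them, did not reach the filter on any array. IFNE, the epithelial type I interferon, had the widest range, with 7.85 in HPAF1 and 6.58 to 7.01 elsewhere. For the 6 receptor genes HPDE was 2-fold higher in 0, with a median of 0.25. The receptor chain IFNLR1 was at 9.27 for HPDE, 9.14 for HPAF1, 9.34 for SU86.86, 8.40 for L3.6 and 7.18 for PANC1, so PANC1 was low for the type III receptor.

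Among 11 JAK, STAT and IRF genes HPDE was at least 2-fold higher in 3, with a median of 0.38, beside 6.48% of all genes tested. IRF7, the factor that drives interferon genes, was at 12.56 for HPDE, 11.36 for HPAF1, 10.25 for SU86.86, 9.82 for PANC1 and 7.01 for L3.6. IRF9, the DNA-binding part of the complex that reads the ISRE, was at 12.05 for HPDE, 11.72 for HPAF1, 8.61 for SU86.86, 8.26 for PANC1 and 8.04 for L3.6. IRF9 thus had the same split as BST2 and MX1, with HPDE and HPAF1 high. Among 12 sensors and adaptors HPDE was higher in 3, with a median of 0.30. The RNA sensor RIGI reached 11.06 in HPDE and 9.79 in HPAF1, and the other lines lay between 7.37 and 8.35. Its regulator DHX58 was at 9.29 in HPDE and 9.14 in HPAF1, and at 7.02 to 8.02 in the others.

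Of 9 negative regulators, 2 were at least 2-fold higher in HPDE and 1 lower, with a median of 0.16. SOCS3, an inhibitor of JAK kinases, was opposite to the members at the ends only, highest in PANC1 and lowest in HPDE. Its level was 10.84 for PANC1, 10.24 for SU86.86, 8.70 for HPAF1, 7.96 for L3.6 and 7.12 for HPDE. HPAF1 and SU86.86 lay above L3.6, as in the member medians. PTPN2 was at 11.73 in HPDE and 9.87 to 10.8 elsewhere. ADAR, which edits double-stranded RNA, was at 12.86 in HPDE and 11.48 to 11.68 elsewhere. A further 31 type I interferon-induced genes had 5 higher in HPDE and 0 lower, with a median of 0.48. HPAF1 also had 5 higher and 0 lower, with a median of 0.52, so HPDE did not lead HPAF1 on this list. Of all genes tested, 6.48% were at least 2-fold higher in HPDE and 6.96% in HPAF1. HELZ2 reached 10.43 in HPDE and 9.51 in HPAF1, and the rest lay between 7.85 and 8.25. APOL1, LGALS3BP and RTP4 peaked in HPAF1, at 11.40, 12.91 and 9.66, with 9.17, 11.93 and 8.74 in HPDE. The ligand, receptor, factor, sensor, regulator and type I lists hold 72 genes past the filter. In the limma fit of HPDE, 0 of the 72 were called, beside 0.0269% of all genes tested. An unadjusted p under 0.05 was found for 12 of the 72, beside 8.23% of all genes.

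**Figure D5:**
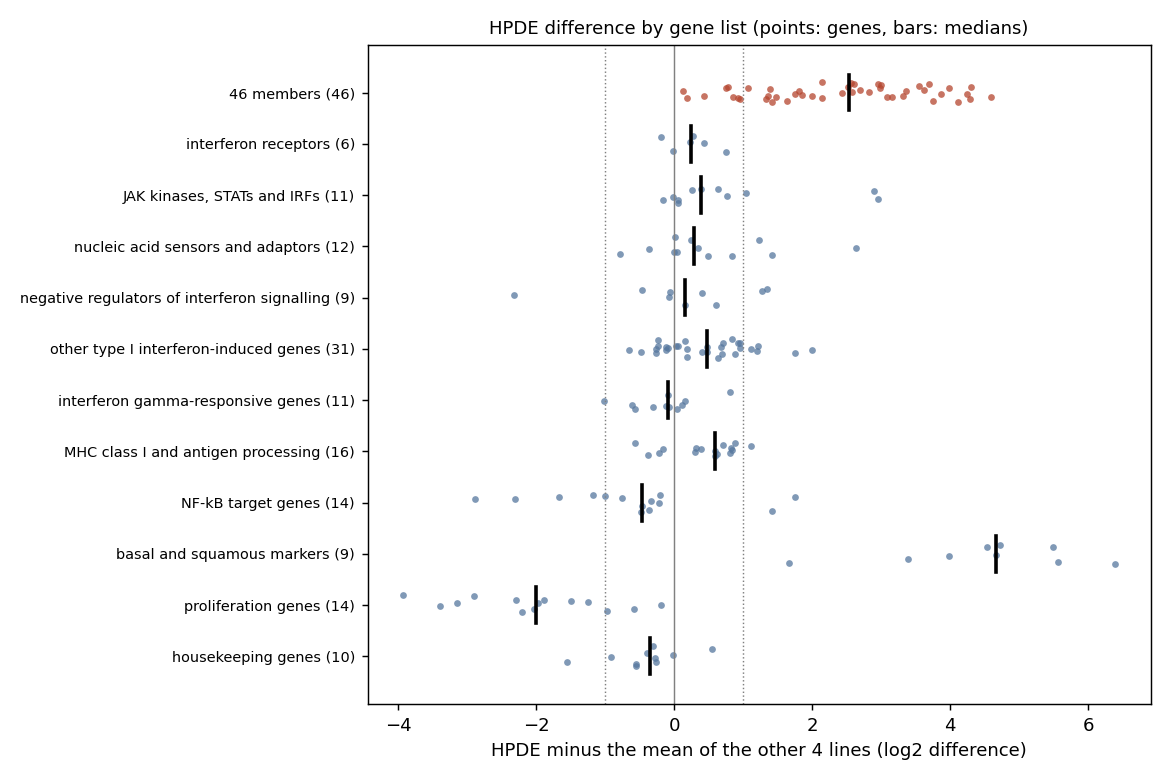
Difference of HPDE from the mean of the other 4 lines (log2) for each gene past the filter in 12 lists, with the number of genes in brackets; points are genes, black bars are medians and dotted lines mark 2-fold. The median is 2.54 for the 46 members, 0.25 for the receptors, 0.38 for the JAK, STAT and IRF genes. Of the proliferation genes, 11 of 14 lie left of the 2-fold line.

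Other marker lists were read on the same arrays. Of 9 basal and squamous markers, 9 were at least 2-fold higher in HPDE, with a median of 4.66. Their summed intensity was 63631 in HPDE, and HPAF1, at 1258, was below L3.6 at 7342 and SU86.86 at 4990, with PANC1 at 759. The order of the other lines was therefore not that of the members. HPDE lay 2-fold or more under the other lines for 11 of 14 proliferation genes. The summed intensity of these 14 was 12365 in HPDE and 19078 in HPAF1, and it lay between 46539 and 61270 in the rest. So the lines with the highest member levels had the lowest sum of proliferation genes, and the part of either marker list in the member levels was not tested. Of 14 leukocyte markers 4 passed the filter, PTPRC was below it on all arrays, and the sum was 1593 in HPDE and 1473 to 2133 elsewhere. Summed fibroblast markers lay between 2211 and 3466 and endothelial ones between 889 and 1159 over the 5 arrays. Of 9 pancreatic epithelial markers, 4 were at least 2-fold below the mean of the other lines in PANC1 and 1 was higher. In HPDE the counts were the same, 4 lower and 1 higher. Of all genes tested, 5.54% were as much lower in PANC1 and 5.57% in HPDE. CDH1 was at 13.34 in HPDE and 8.61 in PANC1, while SOX9 was at 7.92 in HPDE and 11.36 in PANC1. KRT19 was at 12.67 for HPDE, 14.32 for HPAF1, 13.52 for SU86.86, 13.40 for L3.6 and 9.84 for PANC1, and KRT7 was at 7.51 in PANC1, below the filter, against 12.15 or more elsewhere.

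The array controls were close. HPDE exceeded the mean of the other arrays by 0.12 to 0.21 log2 units on the bioB, bioC, bioD and cre controls, and the 3′ to 5′ ratio of ACTB was 0.43 log2 units in HPDE and 0.02 to 0.28 elsewhere. Probe sets were a further limit. Of the 46 members 27 had several, and 41 of 42 other probe sets past the filter had the same sign of the HPDE difference as the one used, the exception being a dim one of EPSTI1. The pattern was the same in 25 of the 42. The probe sets used for 18 members can match several transcripts by their name, IFITM1 and OASL among them, so signal of related transcripts may be mixed there.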

How the data were processed

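Each of 5 established human lines was profiled once, on a one-colour Affymetrix array. The authors deposited a table of linear intensity values for 54675 probe sets; their summarisation, scaling and background correction are not given in the sources used here. Array medians ran from 137 to 143, so nothing further was normalized. The number of arrays limits the precision.

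Intensities were transformed as log2(intensity + 71.1), where the constant equals the 25th percentile of all positive intensities and narrows differences of dim genes. Control probe sets (62) and probe sets with several symbols (1801) were left out. Of 41091 probe sets with 1 symbol, 41037 were matched to RefSeq (GRCh38.p14) symbols, and 54 kept the annotated symbol. The probe set with the highest mean stood for each of 19775 genes. Genes that reached the median of all probe sets (7.72 on the log2 scale) on at least 1 array were kept, leaving 14894.

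Every line was set against the average of the other 4 in limma 3.58.1 (R 4.3.3; 3 residual degrees of freedom; two-sided; Benjamini-Hochberg over 14894 genes; threshold 0.05). The spread of the lone line is assumed to be that of the others, and p-values measure the spread between lines, not between cultures. Pairs of lines were described by size at 2-fold or more. A member's pattern came from the widest gap between its 5 sorted levels, counted from 1 log2 unit. Values in all lines were given for the 5 members with the widest gap in each of the first and second pattern classes, for all of the third, for the 5 with the highest level in the fourth, and for MX1, ISG15 and LAMP3; other lists have at most 4 genes each, those with the widest range. The scripts were tested on simulated data. The members, lists and rules were chosen with earlier results of these data known. Alternatives were another constant, none, other probe set choices, filters, quantile normalization, other gap rules and leaving out each line.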

Additional observations from a re-analysis of the deposited data

How the results depend on the processing

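The number of members called by limma stayed at 0 for each line under every alternative run. All 495 recomputed differences of single members kept their direction and their side of the adjusted p threshold of 0.05. Their size did not always stay on the same side of 2-fold. The HPDE difference of MX2 fell from 1.75 to 0.94 without L3.6, and that of PLSCR1 from 1.07 to 0.70 without PANC1. For PARP12 it rose from 0.93 to 1.13 without HPAF1. Of the recomputed counts and medians over members, 206 kept their direction and stayed within 1.5 times the value given. Pattern counts shifted with the gap rule, the probe sets and the lines used. HPDE alone was high in 13 members and in 22 when a line counted as high within 1 log2 unit of the highest; leaving out a line gave 10 to 28, with 28 without HPAF1. The count with HPDE and HPAF1 high fell from 11 to 6 at a gap of 1.5, and that of other sets from 13 to 7 under the rule of 1 unit from the highest. Members without a gap numbered 9, but 14 with the mean of all probe sets, 17 at a gap of 1.5, 2 under the rule of 1 unit, 4 when probe sets shared between transcripts were left out, and 5 to 10 when a line was left out. The narrower set of probe sets left fewer members. Without HPAF1 the class of HPDE and HPAF1 cannot occur, and another gap rule redefines the classes, so those counts shift in part by definition. The cause of the other shifts was not tested. No paired analysis was possible because each line has 1 array. With readings near background in PANC1 and L3.6, the added constant sets the size of the largest differences. The median difference between HPDE and PANC1 was 3.63, and 4.20 with no constant.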

Other observations

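Other immune genes did not rank the lines as the 46 members did. Among 11 genes that respond chiefly to interferon gamma, HPDE was at least 2-fold higher in 0 and lower in 1, with a median difference of -0.08, while SU86.86 was higher in 4. CD274, the checkpoint ligand PD-L1, was at 11.23 in SU86.86, 8.91 in HPDE, 7.65 in HPAF1, 6.88 in L3.6 and 6.65 in PANC1. GBP3, a relative of GBP1, was at 10.96 in SU86.86, 10.31 in HPAF1, 8.50 in L3.6, 8.09 in HPDE and 6.68 in PANC1. Among 16 MHC class I and antigen processing genes SU86.86 was at least 2-fold higher than the mean of the other lines in 8 and PANC1 lower in 9, while HPDE was higher in 1, HLA-B.

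Among 14 NF-kB target genes SU86.86 was at least 2-fold higher in 8, with a median of 1.72, and HPDE was higher in 2 and lower in 4, with a median of -0.47. The neutrophil chemokine CXCL8 was at 12.15 in SU86.86, 10.53 in HPAF1, 10.35 in L3.6, 7.09 in HPDE and 6.89 in PANC1. HPDE and PANC1, at opposite ends for the interferon-stimulated genes, were thus both below the filter for CXCL8. Of the 41 genes of these lists, limma called 0 in HPDE and 0 in SU86.86, beside 0.0269% and 0% of all genes. At an unadjusted p under 0.05 there were 1 and 8, beside 8.23% and 3.74% of all genes. Of all genes tested, 5.29% were at least 2-fold higher in SU86.86, 5.54% lower in PANC1 and 6.48% higher in HPDE.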
